A study of Mus musculus with 48 samples.

Results

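Macrophages sorted from AT3 tumours were compared with macrophages sorted from E0771 tumours across all genes of the deposited count table. AT3 and E0771 are mouse breast tumour lines that grow in C57BL/6 mice. The comparison was defined by the labels and not by any measured value, and it rests on 3 libraries of AT3 macrophages and 3 of E0771 macrophages, 6 of the 48 libraries of the series. The other libraries are 24 of cultured breast tumour lines, 12 of tumour neutrophils, and 6 of macrophages from 2208L and T11 tumours. Per the labels' protocols, tumours grown in mice were dissociated and DAPI-negative CD45+ CD11b+ Ly6G- Ly6C- F4/80+ cells were sorted as macrophages into TRIzol LS, a reagent that lyses cells and preserves RNA. RNA was isolated with a Direct-zol kit and made into libraries by the low-input total RNA method of Sheng and colleagues, per the labels' protocols. The 3 AT3 libraries and E0771 libraries 2 and 3 are labelled C57BL/6, and E0771 library 1 is labelled BALB/C. No treatment, mouse age or sex is given in the labels used here. The labels do not tie the 3 libraries of a group to separate mice, so p-values measure only how far these libraries spread, and part of that spread may be technical.

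Tumour-associated macrophages descend largely from blood monocytes that enter the tumour through chemokine receptors such as CCR2, and depend on CSF1 acting on the receptor CSF1R. They engulf dying cells, degrade material in lysosomes, and can present antigen on MHC class II molecules. Type I interferon, acting through transcription factors such as STAT2 and IRF9, switches on a set of antiviral genes in them, whereas arginase 1, fibronectin and osteopontin are textbook products of macrophages with tissue-repair functions.

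Counts outside Rn45s, the ribosomal RNA precursor, ran from 1177828 to 1486971 per library in AT3 macrophages and from 683150 to 1125016 in E0771 macrophages. Rn45s took 66.9% to 76.2% of all counts in AT3 macrophages and 65.2% to 72.5% in E0771 macrophages. Levels are CPM, counts scaled to the same total outside Rn45s in each library with TMM factors. TMM is the trimmed mean of M values, a scaling fitted so that most genes do not differ. H2-Ea-ps, whose transcript is missing in mice of the C57BL/6 haplotype, was read as a check of the strain label, a gene chosen after its values were seen. It had 0 counts in each AT3 library, and 4, 2 and 11 counts in E0771 libraries 1, 2 and 3. In macrophages of the tumours labelled BALB/C it had 1825, 1334 and 1204 counts in 2208L libraries and 49, 150 and 562 counts in T11 libraries. The E0771 library labelled BALB/C lay within the range of the other E0771 libraries for this gene and below each 2208L and T11 library. Nnt, which is truncated in some C57BL/6 substrains, had 44.9, 59.3 and 61.8 CPM in AT3 macrophages, against 51.6, 17.7 and 11.8 CPM in E0771 macrophages, and was not called (edgeR adjusted p = 0.0531). E0771 library 1, the one labelled BALB/C, stood apart from its group for Nnt and lay within the range of the AT3 libraries. It was kept in its group as labelled, and without it 1041 genes were higher and 865 lower between the groups, beside 1306 and 1292 with it.

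Of 13933 genes tested, 1306 (9.37%) were higher and 1292 (9.27%) were lower in AT3 macrophages than in E0771 macrophages (edgeR quasi-likelihood test, adjusted p below 0.05). Of the genes called, 842 were higher and 1251 lower by a log2 difference of at least 1. The median log2 difference over all genes tested was -0.05. Counts of list members below are to be read beside the shares over all genes, 9.37% higher and 9.27% lower. On the first principal component, which held 51.3% of the variance of the 6 libraries, AT3 and E0771 libraries did not overlap. The second held 16.5% and set E0771 library 1, at 63.4, apart from E0771 libraries 2 and 3, at -45.5 and -32.9.

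The count of higher against lower genes depended on the scaling. Scaling to library totals without TMM factors gave 426 higher and 2437 lower genes and a median of -0.51. Factors taken from genes above background gave 822 higher and 1557 lower genes and a median of -0.23. Fitting the compared groups alone gave 803 higher and 1486 lower genes, and testing without a filter on low counts gave 1977 higher and 1126 lower genes. Without AT3 library 2, 852 genes were higher and 609 lower, without AT3 library 1 791 were lower, and without AT3 library 3 712 were lower. Genes of olfactory and vomeronasal receptors, which most tissues do not use, summed to 1103 to 1644 CPM in AT3 libraries and 2304 to 2812 CPM in E0771 libraries. Among the 8848 genes whose level per base of exon was at least 10 times that of these receptor genes, 1258 (14.2%) were higher and 613 (6.93%) lower in AT3 macrophages by the fit to all genes. Scaled and fitted on their own, these genes gave 744 higher and 836 lower genes, which turns the larger count to the other side. The part of this background in the lower calls of genes with few counts was not tested.

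**Figure D1:**
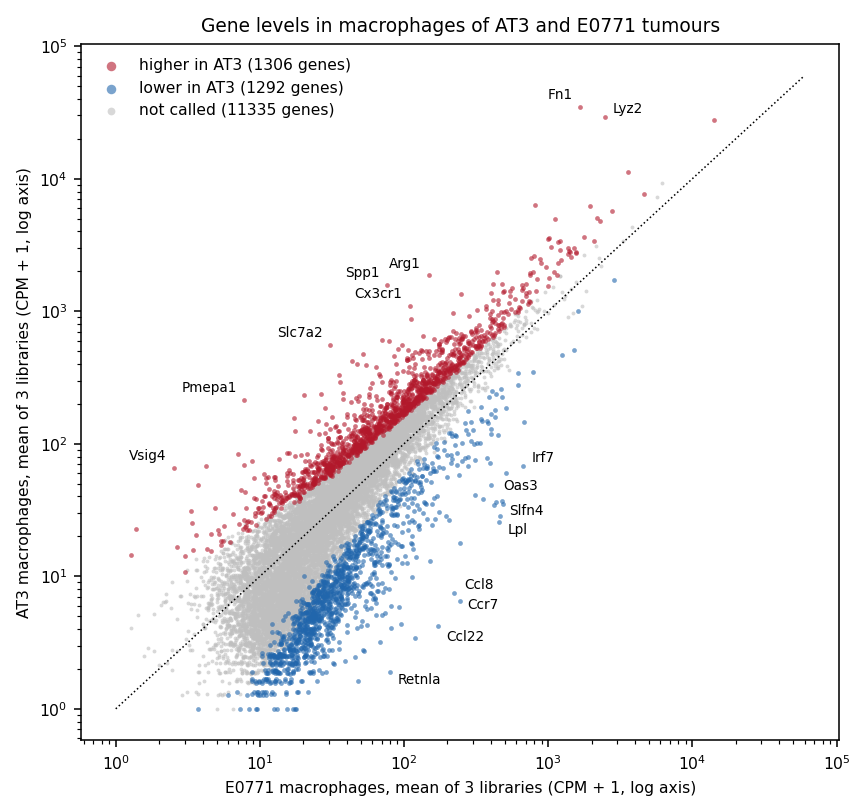
Mean level of each of the 13933 genes tested in AT3 macrophages (vertical axis) against E0771 macrophages (horizontal axis), both as CPM + 1 on log axes. Each point is 1 gene, red where called higher in AT3 (1306 genes), blue where called lower (1292 genes) and grey where not called. The dotted line marks equal levels. Fn1 and Lyz2 lie far above the line at high levels and Retnla, Ccl22 and Ccr7 far below it.

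The markers of the sorted population were present in every library. Csf1r, the CSF1 receptor, had 3638, 3460 and 3467 CPM in AT3 macrophages, against 866, 922 and 1190 CPM in E0771 macrophages. All AT3 libraries lay above all E0771 libraries for Csf1r (log2 difference 1.83 ± 0.23, adjusted p = 1.73e-06). Emr1, the table's name for the gene of the F4/80 antigen used in the sort, had 580, 402 and 372 CPM in AT3 macrophages, against 310, 402 and 416 CPM in E0771 macrophages. The groups overlapped for Emr1 and it was not called (log2 difference 0.26 ± 0.27, adjusted p = 0.514). C1qa, a chain of complement C1q, had 3647, 3735 and 2764 CPM in AT3 macrophages, against 1736, 753 and 1132 CPM in E0771 macrophages, with no overlap between the groups (log2 difference 1.49 ± 0.32, adjusted p = 0.00147). Of 15 macrophage markers, all tested, 10 were higher in AT3 macrophages, 0 were lower and 5 were not called, with a median log2 difference of 1.06. Cd68, Fcgr1, Aif1 and Spi1, a lysosomal glycoprotein, the high-affinity IgG receptor, a calcium-binding protein and the master transcription factor PU.1, were the other markers not called, with log2 differences of 0.22, -0.06, -0.07 and 0.08. Summed over the list, markers reached 46197 to 57036 CPM in AT3 libraries and 9435 to 13555 CPM in E0771 libraries, a sum that Lyz2 leads.

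Markers of other cell types were low in AT3 libraries and, for most types, higher in E0771 libraries. T and NK cell markers summed to 53.9 to 61.8 CPM in AT3 libraries and 351 to 509 CPM in E0771 libraries. Of 14 tested, 11 were lower in AT3 macrophages and 0 higher, but 6 and 7 were lower without AT3 library 1 and without E0771 library 2. Cd4, the T-helper coreceptor that is also found on some myeloid cells, had 8.99, 14.4 and 6.09 CPM in AT3 macrophages, against 82.1, 73.3 and 84.1 CPM in E0771 macrophages (log2 difference -3.00 ± 0.40, adjusted p = 4.15e-06). Cd3e, the defining T-cell chain, had 3.99, 1.69 and 7.83 CPM in AT3 macrophages, against 27, 13.9 and 9.25 CPM in E0771 macrophages, without overlap but not called (log2 difference -1.85 ± 0.72, adjusted p = 0.067). Dendritic cell markers summed to 425 to 610 CPM in AT3 libraries and 848 to 1660 CPM in E0771 libraries, and 8 of 13 tested were lower and 0 higher. Zbtb46, a transcription factor of classical dendritic cells, and Xcr1, the receptor of cross-presenting dendritic cells, reached at most 2.61 and 4.35 CPM in AT3 libraries, against at least 10.6 and 8.21 CPM in E0771 libraries. In sorted bulk RNA, fewer cells of a type and less RNA per cell cannot be told apart. The 17 olfactory and vomeronasal receptor genes tested, the background given above, had a median log2 difference of -1.67. Medians were -3.06 for T and NK cell markers and -2.77 for dendritic cell markers. The part of this background in the marker sums here and below was not tested.

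Endothelial markers summed to 178 to 211 CPM in AT3 libraries and 432 to 504 CPM in E0771 libraries, with 5 of 8 lower and 0 higher. The count was 2 without AT3 library 2, AT3 library 3 or E0771 library 3, and 3 without E0771 library 1. B cell markers summed to 23.7 to 35 CPM in AT3 libraries and 69.5 to 136 CPM in E0771 libraries. Mast cell and eosinophil markers summed to 18.6 to 43.5 CPM in AT3 libraries and 64.4 to 105 CPM in E0771 libraries. No member of the last 2 lists was called in edgeR, of 7 and 5 tested, whereas DESeq2, and edgeR with library totals, each gave 3 B cell and 2 mast cell and eosinophil markers lower. Leaving out E0771 library 3 gave 3 B cell markers lower in edgeR. Neutrophil markers summed to 119 to 189 CPM in AT3 libraries and 281 to 327 CPM in E0771 libraries, and 1 of 7 tested, Mpo, was lower in AT3 macrophages. This count was 0 without AT3 library 1, AT3 library 2 or E0771 library 2, 3 without E0771 library 3 and 5 when scaled to library totals. S100a8, S100a9 and Camp had too few counts to be tested. Erythroid and platelet markers summed to 52.2 to 65.2 CPM in AT3 libraries and 58.6 to 104 CPM in E0771 libraries, with 0 of 3 called by edgeR or DESeq2. Krt19, Cldn5 and Ear1, markers of epithelium, endothelium and eosinophils, were at 0 in each AT3 library. Median log2 differences were -1.62 for endothelial, -1.78 for B cell, -2.07 for mast cell and eosinophil and -1.56 for neutrophil markers. The median of the background receptor genes was -1.67.

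Epithelial and tumour cell markers summed to 142 to 209 CPM in AT3 libraries and 111 to 160 CPM in E0771 libraries. Of 10 tested, 1 was higher and 3 lower, beside 9.37% and 9.27% of all genes tested. The lower count was 1 without AT3 library 2, AT3 library 3 or E0771 library 1, and 5 when scaled to library totals. The higher gene was Cdh1, E-cadherin, with 176, 113 and 111 CPM in AT3 macrophages, against 17.6, 50.5 and 28.6 CPM in E0771 macrophages (log2 difference 2.06 ± 0.36, adjusted p = 0.000147). Cdh1 made up most of the summed level of this list in AT3 libraries, which was 209, 144 and 142 CPM. It made up the smaller part of the sums in E0771 libraries, which were 111, 160 and 119 CPM. Krt8, a keratin, had 2 counts in all in AT3 libraries and 42 in E0771 libraries, a ratio of 0.0414 with a 95% exact counting interval of 0.00486 to 0.159. Krt8 had 17.4 ± 1.84 CPM in cultured AT3 cells and 155 ± 13.9 CPM in cultured E0771 cells (SD, n = 3 each, without TMM factors). Fibroblast markers summed to 467 to 799 CPM in AT3 libraries and 638 to 714 CPM in E0771 libraries, with 3 of 14 higher, namely Dcn, Lum and Col3a1, and 5 lower. Dcn, the matrix proteoglycan decorin, had 30, 44.9 and 67.9 CPM in AT3 macrophages, against 3.52, 1.26 and 3.36 CPM in E0771 macrophages (log2 difference 4.04 ± 0.67, adjusted p = 8.92e-05), and the same gene had 96.6 ± 1.79 CPM in cultured AT3 cells and 3.17 ± 1.56 CPM in cultured E0771 cells. Lum, a related proteoglycan, had 74 counts in AT3 libraries and 1 in E0771 libraries, a ratio of 64.4 with a 95% counting interval of 11.2 to 2578. The part of these other cell types in the gene differences that follow was not tested.

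**Figure D2:**
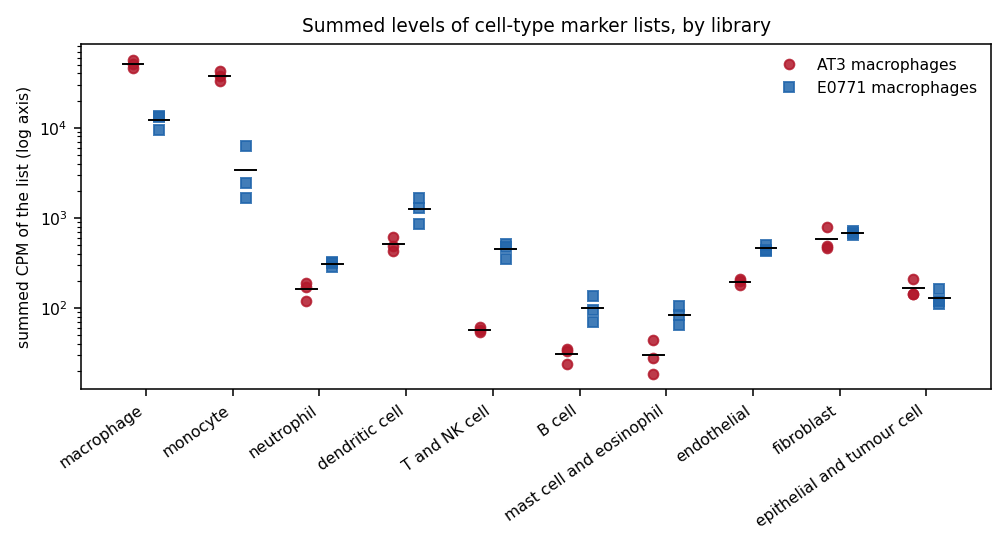
Summed CPM (log axis) of 10 lists of cell-type markers in each library of AT3 macrophages (red circles) and E0771 macrophages (blue squares), with bars at the group means. Macrophage and monocyte sums are higher in all 3 AT3 libraries, where Lyz2 leads the macrophage sum and Fn1 makes up most of the monocyte sum. Neutrophil, dendritic cell, T and NK cell, B cell, mast cell and eosinophil, and endothelial sums are higher in all 3 E0771 libraries. Fibroblast and epithelial sums overlap, and Cdh1 makes up most of the epithelial sum in AT3 libraries.

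The 15 genes with the largest positive differences were taken among genes called with a mean of at least 20 CPM over the 6 libraries and no overlap between the groups. Fn1, fibronectin, had 39944, 30144 and 34185 CPM in AT3 macrophages, against 448, 723 and 3818 CPM in E0771 macrophages (log2 difference 4.38 ± 0.49, adjusted p = 2.07e-07). E0771 library 3 stood above the other E0771 libraries for Fn1 and yet far below the lowest AT3 library, and the difference was 5.94 without it. Spp1, osteopontin, had 2385, 1016 and 1319 CPM in AT3 macrophages, against 41, 89.7 and 95.8 CPM in E0771 macrophages (log2 difference 4.37 ± 0.34, adjusted p = 2.36e-10). Lyz2, lysozyme M, had 28331, 32925 and 25788 CPM in AT3 macrophages, against 1278, 2209 and 3922 CPM in E0771 macrophages (log2 difference 3.55 ± 0.30, adjusted p = 1.32e-09). Fn1 and Lyz2 together took 5.01% to 5.8% of the counts outside Rn45s in AT3 libraries and 0.2% to 0.818% in E0771 libraries. Cxcl14, a chemokine of epithelia, had 39.9, 82.1 and 80.9 CPM in AT3 macrophages, against 4.69, 13.9 and 1.68 CPM in E0771 macrophages (log2 difference 3.41 ± 0.49, adjusted p = 1.16e-05). No AT3 library overlapped an E0771 library for any of these genes, as the rule requires. Of all 13933 genes tested, 2502 (18%) had all AT3 libraries above all E0771 libraries, and 2576 (18.5%) had all below. In GENCODE M21 on mm10, Fn1 lies at chr1:71585520-71653200, Vsig4 at chrX:96247203-96293438, and the lower genes Lpl and Retnla at chr8:68880491-68907448 and chr16:48842551-48844461.

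Arg1, arginase 1, which splits arginine into ornithine and urea, had 2204, 1858 and 1534 CPM in AT3 macrophages, against 51.6, 50.5 and 342 CPM in E0771 macrophages (log2 difference 3.62 ± 0.48, adjusted p = 3.36e-06). E0771 library 3 was again the highest of its group, and the Arg1 difference was 5.24 without it. Slc7a2, a transporter that brings arginine into macrophages, had 555, 558 and 562 CPM in AT3 macrophages, against 35.2, 11.4 and 42.9 CPM in E0771 macrophages (log2 difference 4.18 ± 0.33, adjusted p = 2.36e-10). Its AT3 libraries lay close together and far above the highest E0771 library. Ptgs1, cyclooxygenase 1, had 222, 218 and 256 CPM in AT3 macrophages, against 15.2, 7.58 and 34.5 CPM in E0771 macrophages (log2 difference 3.52 ± 0.36, adjusted p = 3.87e-08). Without TMM factors, Ptgs1 had 193 ± 22.5 CPM in AT3 macrophages, 248 ± 3.41 CPM in cultured AT3 cells and 8.78 ± 1.43 CPM in cultured E0771 cells (SD). In the same cultured cells, Spp1 had 744 ± 16.5 and 46.9 ± 3.56 CPM. Lyz2 had 2.78 ± 1.09 and 6.09 ± 3.01 CPM there, the opposite order. The part of tumour cell RNA in the macrophage values was not tested.

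Among receptors and signalling proteins, Vsig4, a complement receptor of resident macrophages, had 51.9, 73.7 and 68.7 CPM in AT3 macrophages, against 0, 1.26 and 3.36 CPM in E0771 macrophages (log2 difference 5.15 ± 0.69, adjusted p = 3.36e-06). Its difference was 6.54 without E0771 library 3. Pmepa1, a target and inhibitor of TGF-beta signalling, had 186, 198 and 256 CPM in AT3 macrophages, against 2.35, 8.85 and 9.25 CPM in E0771 macrophages (log2 difference 4.91 ± 0.35, adjusted p = 5.43e-11). Cx3cr1, the fractalkine receptor, had 855, 1092 and 1340 CPM in AT3 macrophages, against 55.1, 133 and 138 CPM in E0771 macrophages (log2 difference 3.33 ± 0.33, adjusted p = 2.82e-08). The lowest AT3 library held several times the Cx3cr1 of the highest E0771 library. Clec5a, a lectin receptor of myeloid cells, had 362, 487 and 420 CPM in AT3 macrophages, against 32.8, 56.9 and 37.8 CPM in E0771 macrophages (log2 difference 3.32 ± 0.28, adjusted p = 1.09e-09). Fcna, the soluble pattern receptor ficolin A, had 229, 258 and 218 CPM in AT3 macrophages, against 27, 21.5 and 27.7 CPM in E0771 macrophages (log2 difference 3.20 ± 0.39, adjusted p = 1.1e-06). Tmem119, a membrane protein best known as a microglial marker, had 184, 144 and 138 CPM in AT3 macrophages, against 25.8, 6.32 and 16.8 CPM in E0771 macrophages (log2 difference 3.23 ± 0.35, adjusted p = 1.22e-07). The groups were separate for each of these genes, as the rule requires. Arhgap24, a GTPase-activating protein, completed the 15 genes together with Dcn (log2 difference 4.33 ± 0.46, adjusted p = 7.23e-08).

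The 15 genes with the largest negative differences were taken by the same rule. Ccr7 and Ccl22 are also in the list of dendritic cell markers, Gzmb in that of T and NK cells and Plac8 in that of monocytes. Ccl22, a ligand of CCR4, had 2, 5.08 and 2.61 CPM in AT3 macrophages, against 115, 162 and 238 CPM in E0771 macrophages (log2 difference -5.66 ± 0.51, adjusted p = 3.2e-09). Ccl8, a chemokine of monocytes, had 11, 6.78 and 1.74 CPM in AT3 macrophages, against 208, 182 and 277 CPM in E0771 macrophages (log2 difference -5.10 ± 0.45, adjusted p = 1.63e-09). Ccl5, a chemokine of T cells and macrophages, had 2, 3.39 and 0 CPM in AT3 macrophages, against 23.5, 50.5 and 78.2 CPM in E0771 macrophages (log2 difference -4.74 ± 0.78, adjusted p = 7.28e-05). As the rule requires, each E0771 library exceeded each AT3 library for all 3 chemokines. Ccr7, the receptor that guides dendritic cells to lymph nodes, had 2, 11.9 and 2.61 CPM in AT3 macrophages, against 98.5, 273 and 359 CPM in E0771 macrophages (log2 difference -5.41 ± 0.56, adjusted p = 4.8e-08). E0771 library 1 held the least Ccr7 of its group but far more than the highest AT3 library, and the difference was -6.60 without AT3 library 2. Il2rb and Il2ra, chains of the interleukin 2 receptor, showed log2 differences of -4.78 and -4.09, with adjusted p = 9.8e-07 and 1.66e-05.

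Retnla, resistin-like alpha, a gene induced by interleukin 4 in mouse macrophages, had 3 counts in all in AT3 libraries and 247 in E0771 libraries. Its CPM were 0.999, 1.69 and 0 CPM in AT3 macrophages, against 38.7, 55.6 and 143 CPM in E0771 macrophages, and the ratio of 0.0106 had a 95% counting interval of 0.00217 to 0.0313. E0771 library 3 held the most, and the fitted difference of -6.30 was -5.49 without that library and -7.06 without AT3 library 2. Gzmb, granzyme B, had 2 counts in AT3 libraries and 133 in E0771 libraries, a ratio of 0.0131 (95% counting interval 0.00157 to 0.0482). Intervals cover counting error only.

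Lpl, lipoprotein lipase, had 31, 32.2 and 19.1 CPM in AT3 macrophages, against 415, 485 and 491 CPM in E0771 macrophages (log2 difference -4.08 ± 0.28, adjusted p = 5.32e-11). Slfn4, a Schlafen gene of myeloid cells induced by interferon, had 17, 37.3 and 19.1 CPM in AT3 macrophages, against 375, 490 and 504 CPM in E0771 macrophages (log2 difference -4.20 ± 0.32, adjusted p = 1.77e-10). For both, the E0771 libraries lay close together and far above the AT3 libraries. Spic, a transcription factor of iron-recycling macrophages, had 3.99, 2.54 and 2.61 CPM in AT3 macrophages, against 56.3, 63.2 and 122 CPM in E0771 macrophages (log2 difference -4.70 ± 0.69, adjusted p = 1.56e-05). Plac8, a small cysteine-rich protein of monocytes and lymphocytes, had 3, 2.54 and 1.74 CPM in AT3 macrophages, against 44.6, 144 and 166 CPM in E0771 macrophages (log2 difference -5.56 ± 0.63, adjusted p = 2.48e-07). The remaining lower genes were Fcrl5, a receptor of B cells, Clec4b1, a lectin receptor of dendritic cells, and Mst1r, the receptor of macrophage-stimulating protein. Their log2 differences were -4.92, -4.82 and -4.73. Mst1r rested on E0771 libraries that spread from 17.7 to 99.8 CPM.

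**Figure D3:**
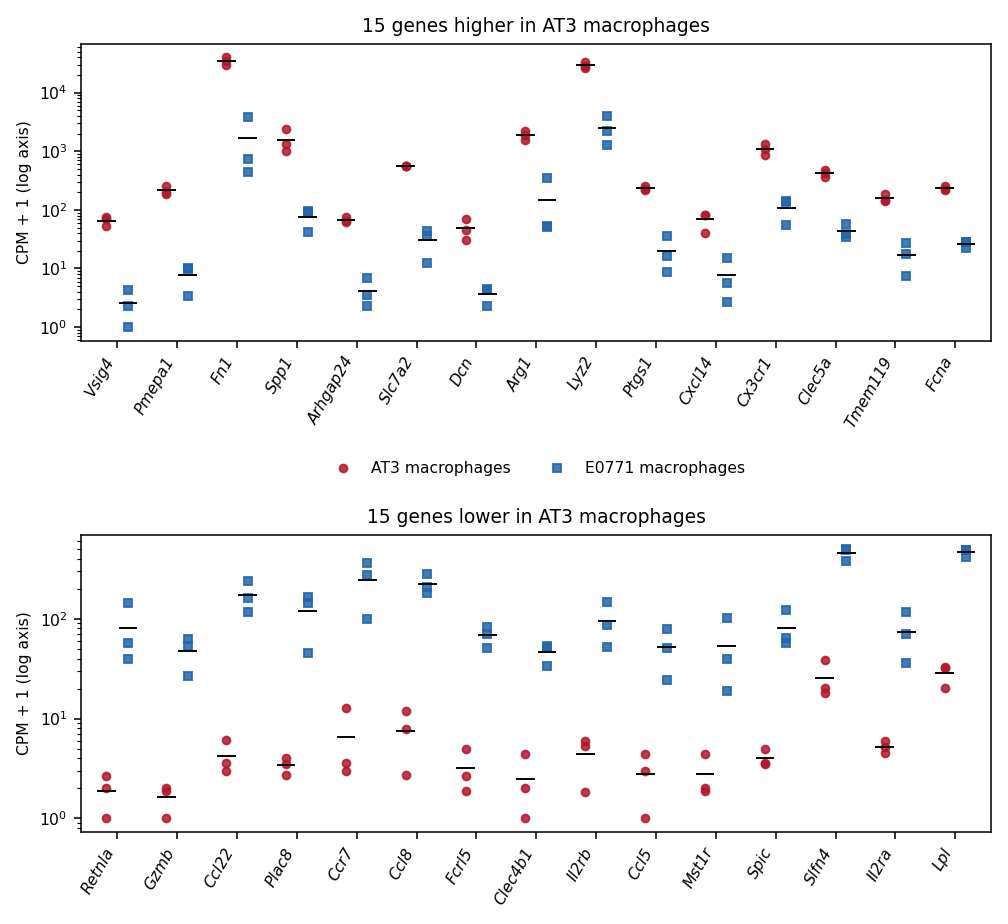
CPM + 1 (log axis) of the 15 higher genes (upper panel) and 15 lower genes (lower panel) in each library of AT3 macrophages (red circles) and E0771 macrophages (blue squares), with bars at the group means. In each gene the 3 AT3 libraries and the 3 E0771 libraries are separate, as the rule for naming these genes requires.

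Most interferon-response genes were lower in AT3 macrophages. Of 50 genes, 49 were tested. Of these, 32 were lower, 2 higher and 15 not called, with a median log2 difference of -1.47 beside -0.05 over all genes. The number lower stayed between 29 and 33 without any 1 library and between 31 and 40 under the other settings. Their summed level was 3639 to 5421 CPM in AT3 libraries and 8796 to 9655 CPM in E0771 libraries.

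Promoters of 4 of the lower genes are shown because interferon acts on such genes through a short element, the interferon-stimulated response element. Its core, read here as the letters GAAA, any 2 bases and GAAA again, was searched on both strands in the 250 bases before and 50 bases after each gene start in RefSeq promoters of GRCm38.p6. Of the 22 lower members with a promoter in that table, 14 (63.6%) held the letters, against 5 of 12 members not called (41.7%), 0 of 2 higher members and 1131 of all 32851 promoters (3.44%). A member counts if any of its promoters held the letters, whereas the share over all promoters counts each promoter singly. The 4 promoters shown were taken among lower members that held the letters, whereas other lower members, among them Oasl1, Irf7 and Ifi44, held none. A match is a description of the letters and does not show binding. The matches are in capitals, read 5′ to 3′ on the strand of the gene. Oas3 is at chr5:120777610-120777909 on the minus strand, Ifit1 at chr19:34640639-34640938 on the plus strand, Ifi205 at chr1:174031706-174032005 on the minus strand, and Rsad2 at chr12:26456403-26456702 on the minus strand.
Oas3: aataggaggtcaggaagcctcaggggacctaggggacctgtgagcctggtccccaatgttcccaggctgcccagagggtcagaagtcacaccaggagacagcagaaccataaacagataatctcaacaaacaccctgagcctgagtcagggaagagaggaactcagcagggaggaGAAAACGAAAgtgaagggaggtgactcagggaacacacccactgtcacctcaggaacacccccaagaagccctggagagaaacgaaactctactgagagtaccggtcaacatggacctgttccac
Ifit1: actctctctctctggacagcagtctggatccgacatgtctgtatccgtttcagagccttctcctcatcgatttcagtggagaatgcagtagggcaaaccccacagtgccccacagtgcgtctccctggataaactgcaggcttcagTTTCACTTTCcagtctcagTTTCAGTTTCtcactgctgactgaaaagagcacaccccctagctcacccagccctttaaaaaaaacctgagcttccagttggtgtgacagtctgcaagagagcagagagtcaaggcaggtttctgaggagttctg
Ifi205: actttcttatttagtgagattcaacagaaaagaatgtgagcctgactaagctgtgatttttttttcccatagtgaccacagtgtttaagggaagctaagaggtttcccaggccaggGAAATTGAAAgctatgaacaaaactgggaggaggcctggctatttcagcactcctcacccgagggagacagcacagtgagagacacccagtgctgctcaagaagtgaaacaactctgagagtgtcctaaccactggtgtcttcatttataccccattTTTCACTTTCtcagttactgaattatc
Rsad2: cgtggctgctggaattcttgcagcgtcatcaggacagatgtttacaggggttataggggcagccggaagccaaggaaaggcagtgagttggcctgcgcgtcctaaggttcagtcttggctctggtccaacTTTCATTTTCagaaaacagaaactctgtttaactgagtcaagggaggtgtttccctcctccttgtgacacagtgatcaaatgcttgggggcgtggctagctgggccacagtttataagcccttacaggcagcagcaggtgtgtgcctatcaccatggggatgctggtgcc

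Among the inducers and sensors of the pathway, Irf7, the transcription factor that amplifies type I interferon, had 35, 91.5 and 75.7 CPM in AT3 macrophages, against 794, 561 and 662 CPM in E0771 macrophages (log2 difference -3.31 ± 0.30, adjusted p = 3.92e-09). The lowest E0771 library held several times the Irf7 of the highest AT3 library. Stat2, a transcription factor activated by interferon receptors, was lower (log2 difference -1.63 ± 0.24, adjusted p = 2.01e-05). Irf9, its partner, was not called (log2 difference -0.49 ± 0.27, adjusted p = 0.204). The cytosolic RNA sensors Ifih1 and Ddx58 were both lower, by log2 differences of -1.44 and -1.47. Zbp1, a sensor of left-handed nucleic acids, was lower as well (log2 difference -2.47 ± 0.32, adjusted p = 2.44e-06).

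Among the antiviral effectors, Oas3, which makes the second messenger that activates RNase L and whose promoter is shown above, had 29, 50 and 27 CPM in AT3 macrophages, against 430, 387 and 477 CPM in E0771 macrophages (log2 difference -3.60 ± 0.32, adjusted p = 3.2e-09). Oasl1, a related protein, had 44.9, 31.3 and 25.2 CPM in AT3 macrophages, against 475, 401 and 392 CPM in E0771 macrophages (log2 difference -3.65 ± 0.28, adjusted p = 1.77e-10). Both genes were several times higher in each E0771 library than in any AT3 library. Ifit1, which binds foreign RNA caps, had 8.99, 21.2 and 14.8 CPM in AT3 macrophages, against 104, 116 and 120 CPM in E0771 macrophages (log2 difference -2.90 ± 0.36, adjusted p = 1.13e-06). Rsad2, the antiviral enzyme viperin, had 6.99, 71.1 and 40.9 CPM in AT3 macrophages, against 287, 281 and 355 CPM in E0771 macrophages (log2 difference -2.93 ± 0.39, adjusted p = 2.98e-06). The AT3 libraries varied widely in Rsad2, with library 1 lowest, and still lay below every E0771 library. Ifi205, a member of a DNA-sensing family with near-identical copies, had 2, 6.78 and 3.48 CPM in AT3 macrophages, against 50.4, 68.2 and 89.1 CPM in E0771 macrophages (log2 difference -4.03 ± 0.51, adjusted p = 1.69e-06). Rtp4, an interferon-induced chaperone, had 13, 25.4 and 12.2 CPM in AT3 macrophages, against 245, 241 and 245 CPM in E0771 macrophages (log2 difference -3.84 ± 0.30, adjusted p = 2.36e-10). Isg15, the ubiquitin-like modifier, had 11, 39.8 and 19.1 CPM in AT3 macrophages, against 151, 114 and 111 CPM in E0771 macrophages (log2 difference -2.40 ± 0.37, adjusted p = 2.65e-05). Counts of paralogs in the Oas, Ifit, Mx, Ifi and Gbp families may be split between copies.

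The guanylate-binding protein genes, which interferon gamma induces strongly, were not called. Gbp2, Gbp3, Gbp4, Gbp5 and Gbp7 had log2 differences of 0.25, 0.18, -1.51, -1.03 and -0.55. Cxcl9, a T-cell chemokine, had 65.9, 338 and 59.2 CPM in AT3 macrophages, against 58.6, 70.8 and 45.4 CPM in E0771 macrophages, and its overlapping groups were not called (log2 difference 1.42 ± 0.63, adjusted p = 0.11). AT3 library 2 was the highest of all for Cxcl9. The related Cxcl10 was lower (log2 difference -1.71 ± 0.39, adjusted p = 0.00252). Of the 4 interferon receptor chains, 2 were higher and 2, Ifnar2 and Ifngr2, were not called, with log2 differences of 0.51 and 0.37. Ifngr1, a chain of the interferon gamma receptor, had 577, 488 and 479 CPM in AT3 macrophages, against 128, 241 and 174 CPM in E0771 macrophages (log2 difference 1.51 ± 0.26, adjusted p = 0.000148), and Ifnar1, a chain of the type I receptor, rose by 0.76 (adjusted p = 0.0206), a call lost without AT3 library 2 and under 4 other alternatives, library totals among them. The transcript of Ifnb1, interferon beta, had too few counts to be tested. Dendritic and T-cell markers, higher in E0771 libraries as given above, moved with these genes, and their part in the result was not tested.

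**Figure D4:**
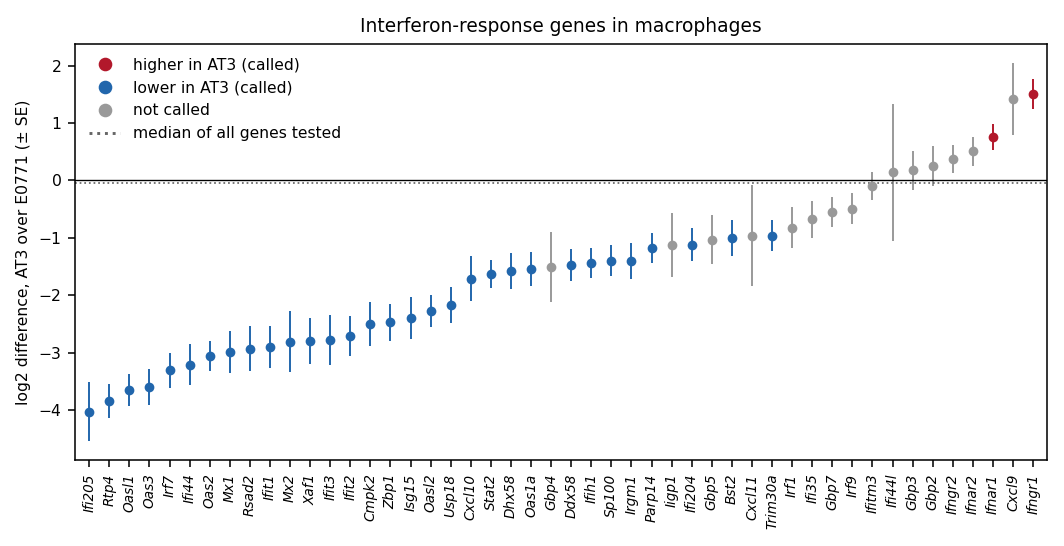
Log2 difference, AT3 over E0771 macrophages, of 48 of the 49 interferon-response genes tested, ordered by size, with bars of 1 SE. Blue genes were called lower (31 shown), red called higher (2) and grey not called (15), and the dotted line is the median of all genes tested (-0.05). Rtp4, Oasl1, Oas3 and Irf7 lie near the low end and the receptor gene Ifngr1 at the high end.

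Of 15 genes of antigen presentation on MHC class II tested, 8 were higher in AT3 macrophages, 0 lower and 7 not called, with a median log2 difference of 1.33. Cd74, the invariant chain, had 7925, 17025 and 8887 CPM in AT3 macrophages, against 3052, 3134 and 4472 CPM in E0771 macrophages (log2 difference 1.67 ± 0.43, adjusted p = 0.00747). AT3 library 2 held far more Cd74 than the other AT3 libraries, and all AT3 libraries lay above all E0771 libraries. H2-Aa, H2-Ab1 and H2-Eb1, chains of the class II molecules, had log2 differences of 1.49, 1.48 and 1.33. Ciita, the transactivator of the class II genes, had 175, 449 and 278 CPM in AT3 macrophages, against 97.3, 153 and 101 CPM in E0771 macrophages (log2 difference 1.37 ± 0.33, adjusted p = 0.0039). Ctss, the cathepsin that trims the invariant chain, had 3727, 4192 and 2840 CPM in AT3 macrophages, against 505, 1115 and 1423 CPM in E0771 macrophages (log2 difference 1.82 ± 0.28, adjusted p = 3.6e-05). Without AT3 library 2, 3 class II genes were called higher, and Cd74, Ciita, H2-Aa, H2-Ab1 and H2-Eb1 lost their calls, H2-Aa and H2-Eb1 also without E0771 library 1. By DESeq2, 4 were called higher and 1 lower, and 4 were higher and 3 lower when scaled to library totals. The costimulatory genes Cd80, Cd86 and Cd40 were not called, with log2 differences of 0.32, 0.46 and -0.81.

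Of 18 class I genes tested, 6 were lower and 1 higher, with a median of -0.09. Without AT3 library 1, 3 were lower. Nlrc5, the transactivator of class I genes, had 132, 138 and 74.8 CPM in AT3 macrophages, against 510, 431 and 403 CPM in E0771 macrophages (log2 difference -1.96 ± 0.30, adjusted p = 3.46e-05). Tap1, a peptide transporter, had 94.9, 120 and 87.9 CPM in AT3 macrophages, against 278, 305 and 172 CPM in E0771 macrophages (log2 difference -1.31 ± 0.27, adjusted p = 0.0013). Both genes were lower in each AT3 library than in any E0771 library. B2m, the light chain, was not called (log2 difference -0.36 ± 0.29, adjusted p = 0.389), and the call of H2-K1, a heavy chain (log2 difference -0.69 ± 0.24, adjusted p = 0.0444), was lost without any 1 of the 6 libraries. Heavy-chain genes are near-identical copies, so their counts are uncertain. Erap1, a trimming peptidase, was the 1 higher gene (log2 difference 0.95 ± 0.29, adjusted p = 0.023), a call lost without AT3 library 1, AT3 library 3, E0771 library 1 or E0771 library 2.

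Of 19 chemokines tested, 8 were lower and 4 higher, beside 9.27% and 9.37% of all genes tested, with a median of -0.77. The higher count was 2 without AT3 library 2 or E0771 library 2, and when scaled to library totals. Besides Ccl22, Ccl8, Ccl5 and Cxcl10, the lower genes were the monocyte attractants Ccl2, Ccl7 and Ccl12 and the inflammatory chemokine Ccl4. Ccl7 had 112, 148 and 123 CPM in AT3 macrophages, against 340, 384 and 478 CPM in E0771 macrophages (log2 difference -1.65 ± 0.29, adjusted p = 0.000147). Ccl2 had 59.9, 45.7 and 64.4 CPM in AT3 macrophages, against 120, 93.5 and 139 CPM in E0771 macrophages (log2 difference -1.05 ± 0.33, adjusted p = 0.024). In both genes the groups did not overlap. Each call of Ccl2 and Ccl12 was lost when any of several single libraries was left out, among them AT3 libraries 1, 2 and 3. The higher chemokines were Cxcl14, Cxcl16, Ccl6 and Ccl9. Ccl6, a constitutive myeloid chemokine of rodents, had 1731, 2413 and 1653 CPM in AT3 macrophages, against 407, 455 and 1382 CPM in E0771 macrophages (log2 difference 1.36 ± 0.31, adjusted p = 0.00275), and E0771 library 3 came close to the AT3 libraries. The call of Cxcl16 was lost without AT3 library 2 or E0771 library 2, and that of Ccl9 without either of these or E0771 library 1.

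Of 30 chemokine and growth factor receptors, all tested, 12 were higher and 2 lower, with a median of 0.48. The 11 chemokine receptors among them gave 5 higher and 1 lower. Ccr2, the receptor of Ccl2, Ccl7 and Ccl12, had 563, 922 and 1142 CPM in AT3 macrophages, against 22.3, 124 and 184 CPM in E0771 macrophages (log2 difference 2.97 ± 0.42, adjusted p = 8.28e-06). E0771 library 1 was the lowest of all in Ccr2, and the difference was 3.65 without E0771 library 3. Ccr1, a receptor of several CC chemokines, had 406, 609 and 540 CPM in AT3 macrophages, against 95, 64.4 and 109 CPM in E0771 macrophages (log2 difference 2.52 ± 0.26, adjusted p = 3.25e-08). Cmklr1, the chemerin receptor, had 658, 666 and 526 CPM in AT3 macrophages, against 158, 162 and 160 CPM in E0771 macrophages (log2 difference 1.95 ± 0.30, adjusted p = 3.72e-05). The receptor genes Csf2ra and Csf2rb2 of the GM-CSF pathway and C5ar1 of the complement pathway were higher by 0.98, 1.32 and 1.14. Il1r2, a decoy receptor of interleukin 1, and Ccr7 were the lower genes. Il1r2 had 13, 16.9 and 11.3 CPM in AT3 macrophages, against 11.7, 87.2 and 65.6 CPM in E0771 macrophages, where the AT3 libraries overlapped E0771 library 1 and no other (log2 difference -1.99 ± 0.54, adjusted p = 0.0106). Its call was lost without AT3 library 3 or E0771 library 2.

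Among 15 monocyte markers, all tested, 4 were higher and 5 lower, or 2 and 5 when scaled to library totals. The median log2 difference was -0.51. Markers summed to 33006 to 42744 CPM in AT3 libraries, most of it Fn1, and 1640 to 6210 CPM in E0771 libraries. Ccr2, Fn1, Itgal and F13a1, an integrin chain and a coagulation factor among them, were higher. Ly6c2, which encodes part of the Ly6C antigen that the sort excluded, had 3.99, 5.93 and 2.61 CPM in AT3 macrophages, against 24.6, 35.4 and 39.5 CPM in E0771 macrophages (log2 difference -2.96 ± 0.70, adjusted p = 0.0039), and Plac8, Ly6c1 and Ace were also lower. The calls of Itgal and Ly6c1 were lost without AT3 library 2, and that of F13a1 without AT3 library 1, AT3 library 3, E0771 library 1 or E0771 library 2.

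Of 25 inflammatory cytokine genes tested, 4 were higher and 4 lower, beside 9.37% and 9.27% of all genes tested. Il1a and Il1b, the interleukin 1 cytokines, were higher, with log2 differences of 2.53 and 0.94, as were Osm, oncostatin M, and Sod2. Il1b had 516, 1032 and 909 CPM in AT3 macrophages, against 186, 579 and 515 CPM in E0771 macrophages (log2 difference 0.94 ± 0.32, adjusted p = 0.0373), with overlapping libraries and a call lost with DESeq2 and without AT3 library 2, AT3 library 3 or E0771 library 1. The call of Sod2, an antioxidant enzyme that NF-kB induces, was lost without AT3 library 2, AT3 library 3, E0771 library 1 or E0771 library 2. Tnf, Il10, Il12b and Ebi3 were lower, with differences of -1.11, -2.89, -4.58 and -1.76. The call of Tnf was lost without AT3 library 1, AT3 library 2, E0771 library 1 or E0771 library 3, and that of Ebi3 without AT3 library 3. Nos2, inducible nitric oxide synthase, had 14, 31.3 and 19.1 CPM in AT3 macrophages, against 57.5, 72 and 5.88 CPM in E0771 macrophages and was not called (log2 difference -1.02 ± 0.53, adjusted p = 0.171). Of the 25, 2 were higher without AT3 library 2, AT3 library 3 or E0771 library 1. Scaled to library totals, 2 were higher and 9 lower.

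Genes linked to alternative activation did not move as a block. Of 28 tested, 8 were higher and 5 lower, beside 9.37% and 9.27% of all genes tested, with a median of -0.09. Scaling to library totals gave 8 higher and 11 lower, and leaving out E0771 library 3 gave 9 higher and 3 lower. Arg1, the scavenger receptors Msr1 and Stab1, the folate receptor Folr2, the lectins Clec4n and Clec7a, Vsig4 and Klf4 were higher. Msr1 had 1524, 1684 and 1583 CPM in AT3 macrophages, against 368, 385 and 492 CPM in E0771 macrophages (log2 difference 1.94 ± 0.24, adjusted p = 9.16e-07). Stab1 had 3450, 2450 and 1952 CPM in AT3 macrophages, against 889, 634 and 855 CPM in E0771 macrophages (log2 difference 1.72 ± 0.25, adjusted p = 1.04e-05). Retnla, Ccl8, Timd4, a phosphatidylserine receptor, Cd36, a fatty acid and lipoprotein receptor, and Pparg, a lipid-sensing nuclear receptor, were lower. The call of Cd36 was lost without E0771 library 3, and that of Timd4 without any 1 library other than E0771 library 1. Pparg had 2, 7.62 and 6.09 CPM in AT3 macrophages, against 83.2, 50.5 and 55.5 CPM in E0771 macrophages (log2 difference -3.54 ± 0.55, adjusted p = 3.66e-05). Mrc1, the mannose receptor, had 1425, 914 and 877 CPM in AT3 macrophages, against 669, 709 and 925 CPM in E0771 macrophages and overlapped between the groups (log2 difference 0.48 ± 0.24, adjusted p = 0.148).

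Lipid-handling genes likewise moved both ways, with 8 of 28 tested higher and 6 lower, beside 9.37% and 9.27% of all genes tested. Apoe, apolipoprotein E, had 4967, 5329 and 4571 CPM in AT3 macrophages, against 1191, 735 and 1433 CPM in E0771 macrophages (log2 difference 2.14 ± 0.26, adjusted p = 7.77e-07). Trem2, a lipid receptor of macrophages, had 372, 534 and 418 CPM in AT3 macrophages, against 230, 78.3 and 140 CPM in E0771 macrophages (log2 difference 1.56 ± 0.31, adjusted p = 0.000803). Abca1, a cholesterol exporter, was higher by 1.53, and Abcg1, another cholesterol exporter, was lower (log2 difference -1.26). Gpnmb, a glycoprotein of lipid-laden macrophages, had 34, 32.2 and 21.8 CPM in AT3 macrophages, against 175, 153 and 191 CPM in E0771 macrophages (log2 difference -2.56 ± 0.36, adjusted p = 7.36e-06). Fabp5, a fatty acid carrier, and Lpl were lower in every AT3 library than in any E0771 library. Scaled to library totals, 6 lipid genes were higher and 7 lower. Of 28 sterol and fatty acid synthesis genes, 6 were higher and 2 lower, a count that was 1 and 0 without AT3 library 2 and 1 and 2 when scaled to library totals. The higher count was 3 without AT3 library 3 or E0771 library 1, and the lower count 0 without AT3 library 1. Acly, which makes cytosolic acetyl-CoA, had 764, 642 and 513 CPM in AT3 macrophages, against 130, 195 and 284 CPM in E0771 macrophages (log2 difference 1.65 ± 0.27, adjusted p = 7.82e-05).

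Of 35 hypoxia and glycolysis genes tested, 17 were higher in AT3 macrophages, 2 lower and 16 not called, with a median of 0.69. The number higher was 12 to 21 without any 1 library and 11 to 20 under the other settings. Of the enzymes of glycolysis, Gpi1, Pfkl, Aldoa, Tpi1, Gapdh, Pgk1, Pkm and Ldha were higher, the last with a call lost without any 1 library other than E0771 library 3. Aldoa, aldolase A, had 1295, 1360 and 1013 CPM in AT3 macrophages, against 413, 375 and 561 CPM in E0771 macrophages (log2 difference 1.44 ± 0.23, adjusted p = 5.74e-05). Tpi1, triosephosphate isomerase, had 722, 646 and 464 CPM in AT3 macrophages, against 132, 173 and 265 CPM in E0771 macrophages (log2 difference 1.68 ± 0.26, adjusted p = 2.96e-05). Slc16a3, the lactate exporter, had 254, 222 and 294 CPM in AT3 macrophages, against 72.7, 140 and 112 CPM in E0771 macrophages (log2 difference 1.24 ± 0.30, adjusted p = 0.00433). In all 3 genes the groups were separate.

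Vegfa, the endothelial growth factor, had 133, 167 and 184 CPM in AT3 macrophages, against 55.1, 26.5 and 66.4 CPM in E0771 macrophages (log2 difference 1.68 ± 0.31, adjusted p = 0.000257). P4ha1, a prolyl hydroxylase of collagen, had 317, 214 and 293 CPM in AT3 macrophages, against 68, 73.3 and 95 CPM in E0771 macrophages (log2 difference 1.79 ± 0.27, adjusted p = 2.74e-05). Hif1a, the oxygen-regulated transcription factor, was higher by 0.98 (adjusted p = 0.00733), a call lost without AT3 library 2. Ndrg1, a stress-induced gene, had 95.9, 126 and 77.4 CPM in AT3 macrophages, against 294, 320 and 351 CPM in E0771 macrophages (log2 difference -1.69 ± 0.27, adjusted p = 4.1e-05), and Adm, adrenomedullin, had 2 counts in AT3 libraries and 43 in E0771 libraries, a ratio of 0.0405 (95% counting interval 0.00475 to 0.155). The letters ACGTG of the hypoxia response element, searched on both strands, stood in promoters of 12 of 17 higher members (70.6%) and 12 of 14 members not called (85.7%). The higher members thus held them no more often than the members not called. Of all promoters, counted singly, 19.6% held the letters, whereas a member counts if any of its promoters did.

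Of 14 arginine and polyamine genes tested, 2 were higher and 1 lower, beside 9.37% and 9.27% of all genes tested. Arg1 and Slc7a2 were the higher genes, and Odc1, ornithine decarboxylase, the first enzyme of polyamine synthesis from the ornithine that arginase makes, had 46.9, 47.4 and 49.6 CPM in AT3 macrophages, against 77.4, 123 and 133 CPM in E0771 macrophages (log2 difference -1.21 ± 0.29, adjusted p = 0.00477). Scaled to library totals, 3 members were lower. Of 46 oxidative phosphorylation genes, 9 were higher and 0 lower, with a median of 0.45. The count of higher genes was 3 when scaled to library totals. All 46 lay above background, where 14.2% of genes were higher and 6.93% lower. Sdha, Sdhb, Uqcrc2 and Atp5a1, subunits of complexes II, III and V, were higher by 1.62, 1.16, 1.67 and 0.98. Sdhb had 149, 167 and 157 CPM in AT3 macrophages, against 55.1, 70.8 and 84.9 CPM in E0771 macrophages (log2 difference 1.16 ± 0.27, adjusted p = 0.00288).

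Of 20 oxidative stress genes tested, 8 were higher and 0 lower, and 5 were higher without AT3 library 2 or when scaled to library totals. Nfe2l2, the transcription factor NRF2, had 393, 540 and 455 CPM in AT3 macrophages, against 218, 205 and 227 CPM in E0771 macrophages (log2 difference 1.10 ± 0.23, adjusted p = 0.0014). Slc7a11, the cystine importer, and Prdx5, a peroxiredoxin, were higher by 1.77 and 2.06. Iron and haem genes gave 2 of 20 higher and 4 lower, beside 9.37% and 9.27% of all genes tested. With library totals, 1 was higher and 9 lower. Slc40a1, the iron exporter ferroportin, had 21, 19.5 and 17.4 CPM in AT3 macrophages, against 136, 74.6 and 124 CPM in E0771 macrophages (log2 difference -2.53 ± 0.40, adjusted p = 3.9e-05). Trf, transferrin, had 536, 345 and 285 CPM in AT3 macrophages, against 34, 45.5 and 80.7 CPM in E0771 macrophages (log2 difference 2.83 ± 0.33, adjusted p = 5.03e-07). Hmox1, haem oxygenase 1, was lower (log2 difference -0.73 ± 0.26, adjusted p = 0.0492), a call lost without any 1 library other than E0771 library 2. The 2 genes higher were Trf and Blvra, biliverdin reductase, whose call was lost without AT3 library 2, AT3 library 3, E0771 library 2 or E0771 library 3.

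Of 47 lysosomal genes tested, 19 were higher, 2 lower and 26 not called, with a median of 0.57, and the number higher was 14 to 23 without any 1 library and 11 under library totals. Asah1, acid ceramidase, had 535, 492 and 485 CPM in AT3 macrophages, against 137, 160 and 198 CPM in E0771 macrophages (log2 difference 1.60 ± 0.24, adjusted p = 1.51e-05). The lowest AT3 library held more than double the highest E0771 library for Asah1. Man2b1, Lamp1 and Lamp2, an acid mannosidase and the major lysosomal membrane proteins, were higher by 1.57, 1.04 and 1.09. Of 15 genes of the proton pump and its accessory proteins tested, 5, namely Atp6v0b, Atp6v1a, Atp6v1e1, Atp6ap1 and Atp6ap2, were higher, Atp6v0d2, an isoform of osteoclasts, was lower and 9 were not called. The calls of Atp6v0b, Atp6v1a and Atp6v0d2 were each lost without E0771 library 1 and without 2 or 3 other single libraries. Ctsk, the bone-resorbing cathepsin K, was the other lower gene (log2 difference -1.86 ± 0.41, adjusted p = 0.00199).

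Complement genes moved both ways, with 8 of 20 tested higher and 6 lower, beside 9.37% and 9.27% of all genes tested. The lower count was 1 without AT3 library 2 or without E0771 library 1, 2 without AT3 library 1 and 3 without AT3 library 3. Among the higher genes were the C1q chains C1qa, C1qb and C1qc, the receptor chains Itgam and Itgb2, C5ar1 and Vsig4. Cfb, factor B of the alternative pathway, had 53.9, 75.4 and 40.9 CPM in AT3 macrophages, against 223, 239 and 257 CPM in E0771 macrophages (log2 difference -2.08 ± 0.27, adjusted p = 2.43e-06), and C2, C3, C4b, Cd55 and Serping1 were the other lower genes, each of which lost its call without AT3 library 2 or without E0771 library 1. The calls of C1qb and C1qc were lost without E0771 library 2. Among 7 Fc receptor genes, Fcgr2b and Fcgr3, an inhibitory and an activating IgG receptor, were higher by 1.72 and 1.40, and Fcgr4 was lower (log2 difference -1.10), a call lost with DESeq2 and without any 1 library other than AT3 library 2.

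Of 21 toll-like receptor genes, 7 were higher and 1 lower, beside 9.37% and 9.27% of all genes tested. Scaled to library totals, 4 were higher and 1 lower. Cd14, the coreceptor of lipopolysaccharide, had 1218, 1625 and 1192 CPM in AT3 macrophages, against 152, 160 and 428 CPM in E0771 macrophages (log2 difference 2.43 ± 0.31, adjusted p = 1.54e-06), and Tlr2 and Tlr4 were higher by 2.06 and 1.33. The 1 lower gene was Tlr9, the endosomal DNA receptor, with 43.9, 90.6 and 66.1 CPM in AT3 macrophages, against 437, 206 and 181 CPM in E0771 macrophages (log2 difference -2.03 ± 0.36, adjusted p = 0.000181). E0771 library 1 held the most Tlr9.

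Matrix and remodelling genes split, with 8 of 32 tested higher and 9 lower. Thbs1, thrombospondin 1, had 7252, 5819 and 5800 CPM in AT3 macrophages, against 426, 442 and 1545 CPM in E0771 macrophages (log2 difference 2.96 ± 0.37, adjusted p = 1.13e-06), and the difference was 3.91 without E0771 library 3. Timp2, an inhibitor of metalloproteinases, was higher by 1.60. Col4a1, a basement membrane collagen, had 46.9, 52.5 and 39.2 CPM in AT3 macrophages, against 128, 135 and 124 CPM in E0771 macrophages (log2 difference -1.48 ± 0.32, adjusted p = 0.00171), and Sparc, Col1a1, Col6a1, Lamb2, Timp3 and Mmp13 were also lower. The call of Col6a1 was lost without AT3 library 1, AT3 library 2 or E0771 library 2. Several of the lower collagens are made by fibroblasts and endothelial cells, whose marker sums are given above. Without AT3 library 2 or E0771 library 2, 6 and 5 matrix genes were higher, and scaling to library totals gave 4 higher and 13 lower.

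Of 27 integrin and adhesion genes, 13 were higher, 4 lower and 10 not called, with a median of 0.59, and scaling to library totals gave 6 higher and 7 lower. Itgb5, which pairs with the alpha V chain, had 564, 506 and 448 CPM in AT3 macrophages, against 103, 96 and 115 CPM in E0771 macrophages (log2 difference 2.27 ± 0.24, adjusted p = 9.58e-08). Cd81, a tetraspanin, had 487, 600 and 571 CPM in AT3 macrophages, against 110, 93.5 and 82.4 CPM in E0771 macrophages (log2 difference 2.54 ± 0.27, adjusted p = 5.94e-08). TGF-beta signalling genes gave 6 of 22 tested higher and 2 lower, beside 9.37% and 9.27% of all genes tested. Without AT3 library 2, 4 were higher and 0 lower. Library totals gave 3 higher and 2 lower. The lower count was also 0 without AT3 library 1 and 1 without AT3 library 3, E0771 library 1 or E0771 library 2. Tgfbr1, the type I receptor, had 339, 354 and 447 CPM in AT3 macrophages, against 23.5, 92.2 and 71.5 CPM in E0771 macrophages (log2 difference 2.60 ± 0.31, adjusted p = 4.96e-07). Ski and Skil, feedback inhibitors of the SMAD proteins, were higher by 1.31 and 1.19. Of 24 angiogenic factors tested, 2 were higher and 3 lower, shares near those over all genes, and 2 were higher and 7 lower when scaled to library totals. Pdgfb, a growth factor of pericytes, had 115, 243 and 145 CPM in AT3 macrophages, against 58.6, 40.4 and 18.5 CPM in E0771 macrophages (log2 difference 2.13 ± 0.34, adjusted p = 4.1e-05), and Vegfa was the other higher gene.

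Genes of immune checkpoints gave 5 of 24 tested higher and 3 lower, beside 9.37% and 9.27% of all genes tested. All 24 lay above background, where 14.2% of genes were higher and 6.93% lower. Scaled to library totals, 3 were higher and 8 lower. Cd274, which encodes PD-L1, had 94.9, 170 and 88.7 CPM in AT3 macrophages, against 388, 406 and 401 CPM in E0771 macrophages (log2 difference -1.75 ± 0.27, adjusted p = 3.9e-05). Pdcd1lg2, the gene of PD-L2, was lower as well (log2 difference -2.97 ± 0.63, adjusted p = 0.00145). Both ligands were lower in each AT3 library than in any E0771 library. 4632428N05Rik, the table's name for the gene of the checkpoint protein VISTA, had 656, 730 and 758 CPM in AT3 macrophages, against 498, 221 and 302 CPM in E0771 macrophages (log2 difference 1.07 ± 0.26, adjusted p = 0.00401), a call lost when scaled to library totals. Havcr2, the gene of TIM-3, and Nt5e and Entpd1, which turn extracellular ATP into adenosine, were higher by 1.27, 2.21 and 0.89, the last with a call lost without AT3 library 2 or E0771 library 2.

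Transcription factors of macrophages gave 11 of 34 tested higher and 4 lower, with 7 higher without AT3 library 2 and 6 when scaled to library totals. The lower count was 2 to 3 without any 1 library. Bhlhe41, a factor of alveolar and self-renewing macrophages, had 66.9, 92.3 and 92.2 CPM in AT3 macrophages, against 12.9, 10.1 and 21.9 CPM in E0771 macrophages (log2 difference 2.44 ± 0.35, adjusted p = 1.23e-05). Runx3 and Rbpj were higher by 1.47 and 1.63. Spic, Pparg, Nr1h3, which encodes the oxysterol receptor LXR alpha, and Batf3, a factor of dendritic cells, were lower. The call of Nr1h3 was lost without AT3 library 1, AT3 library 3 or E0771 library 1, and that of Batf3 without any 1 library other than AT3 library 1. Of 38 proliferation genes, all tested, 1 was higher and 1 lower, and DESeq2 gave the same counts. Without E0771 library 2, 3 were higher and 0 lower, and 2 were lower without AT3 library 1 or E0771 library 3. Scaled to library totals, 1 was higher and 8 lower. Mki67, the gene of the Ki-67 antigen, was higher (log2 difference 1.29 ± 0.25, adjusted p = 0.000648), whereas Top2a, a topoisomerase of dividing cells, was not called (log2 difference 0.52 ± 0.28, adjusted p = 0.19). Histone genes of replication gave 0 of 22 tested higher and 1 lower, or 0 and 3 when scaled to library totals.

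**Figure D5:**
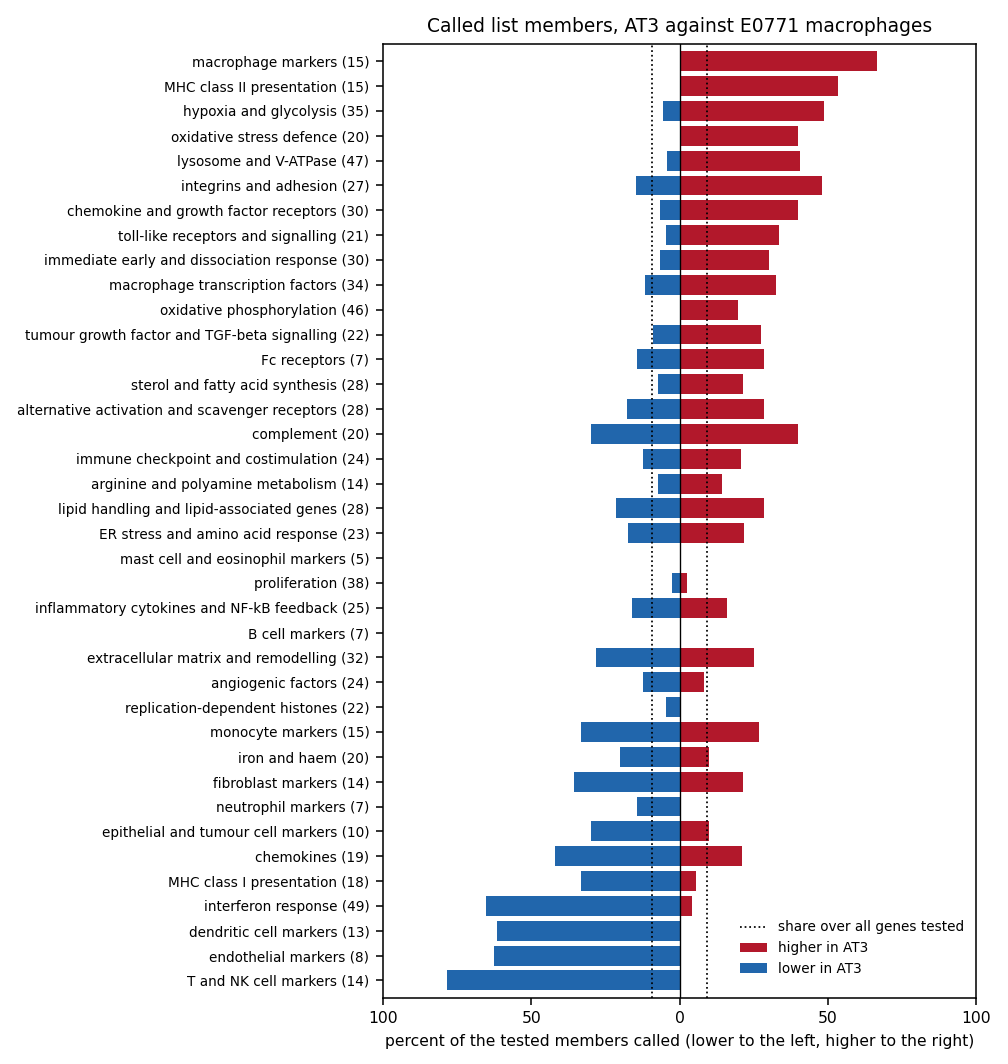
Percent of the tested members of each list called higher (red, to the right) or lower (blue, to the left) in AT3 macrophages. The number tested is in parentheses, and lists are ordered by the share called higher minus the share called lower. Dotted lines are the shares over all genes tested, 9.37% higher and 9.27% lower. Macrophage markers, MHC class II, and hypoxia and glycolysis genes reach furthest to the right, and T and NK cell markers, interferon response, endothelial and dendritic cell markers furthest to the left. Some bars change with the scaling, as given in the text.

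The difference between AT3 and E0771 macrophages was next set against the same difference between neutrophils sorted from the same kinds of tumour, 3 libraries a group. The test asked whether the 2 differences differ (edgeR quasi-likelihood test over the 24 sorted libraries). E0771 neutrophil library 1 is labelled BALB/C, as is E0771 macrophage library 1, and the other E0771 libraries are labelled C57BL/6. It was kept in its group. H2-Ea-ps had 4, 5 and 6 counts in E0771 neutrophil libraries 1, 2 and 3. Of 19056 genes tested, 112 (0.588%) had a more positive difference in macrophages and 280 (1.47%) a more negative one. The positive count was 67 without AT3 macrophage library 1 or 2 and 221 without E0771 macrophage library 3, and the negative count was 132 and 170 without AT3 macrophage libraries 2 and 3. Macrophage and neutrophil libraries of a tumour line carry matching numbers, both in their titles and in the column names of the deposited counts. In the column names the matching numbers of AT3 are not consecutive. The labels do not say whether the libraries came from the same tumours. The test treats them as independent, and a replicate block by tumour line and number gave 106 positive and 175 negative genes. Of the genes called between the macrophages, 323 were among the called genes of the test without the block. Levels in the next sentences are CPM without TMM factors, as mean ± SD of 3 libraries.

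Slc7a2 reached 465 ± 18.8 CPM in AT3 and 33.1 ± 17.4 CPM in E0771 macrophages, and 93.8 ± 21.7 CPM in AT3 and 50.9 ± 6.69 CPM in E0771 neutrophils. Its difference in macrophages exceeded that in neutrophils by 3.19 ± 0.47 log2 (SE, adjusted p = 0.000109). Bhlhe41 reached 69.6 ± 11.3 CPM in AT3 and 16.6 ± 5.87 CPM in E0771 macrophages, and 28.7 ± 3.97 CPM in AT3 and 54.1 ± 9.31 CPM in E0771 neutrophils. The order of the tumours was thus opposite in the 2 cell types for Bhlhe41 (difference 3.20 ± 0.49, adjusted p = 0.000179). Ccl22 reached 2.65 ± 1.23 CPM in AT3 and 191 ± 59.2 CPM in E0771 macrophages, and 16.4 ± 13.4 CPM in AT3 and 37.6 ± 10.5 CPM in E0771 neutrophils, and its difference in macrophages minus that in neutrophils was -4.45 ± 0.76 (adjusted p = 0.000673).

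Of the 49 interferon-response genes tested, 7 had a more negative difference in macrophages and 0 a more positive one. The number more negative was 8 with the replicate block and 4 and 5 without AT3 macrophage libraries 3 and 1. The 7 were Irf7, Mx2, Oas2, Oas3, Oasl1, Oasl2 and Rtp4. Irf7 reached 55.6 ± 22.8 CPM in AT3 and 757 ± 145 CPM in E0771 macrophages, and 89.3 ± 34.6 CPM in AT3 and 308 ± 14.3 CPM in E0771 neutrophils. Irf7 was thus low in AT3 samples of both cell types, with the larger difference in macrophages (-1.77 ± 0.49, adjusted p = 0.0427), a call lost without AT3 macrophage library 1, AT3 macrophage library 3 or E0771 macrophage library 1. Oasl1 reached 28.2 ± 8.84 CPM in AT3 and 477 ± 69.4 CPM in E0771 macrophages, and 136 ± 57.9 CPM in AT3 and 356 ± 76.7 CPM in E0771 neutrophils, with the same order of groups (-2.49 ± 0.49, adjusted p = 0.00289).

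For 3 of the most abundant higher genes, no difference between the cell types was detected. Fn1 reached 29001 ± 5011 CPM in AT3 and 1798 ± 1945 CPM in E0771 macrophages, and 4730 ± 250 CPM in AT3 and 205 ± 83.8 CPM in E0771 neutrophils, and the difference of differences was -0.35 ± 0.81 (adjusted p = 0.861). Lyz2 and Arg1 gave 0.67 ± 0.68 and 0.22 ± 0.74 (adjusted p = 0.631 and 0.908). Spp1, another abundant higher gene, did differ between the cell types (2.46 ± 0.61, edgeR adjusted p = 0.0223). Its levels were 1319 ± 633 CPM in AT3 and 84.3 ± 31.8 CPM in E0771 macrophages, and 410 ± 83.6 CPM in AT3 and 125 ± 24.8 CPM in E0771 neutrophils. The neutrophil libraries also held Csf1r, at 494 ± 82 CPM in AT3 and 219 ± 12.1 CPM in E0771, beside 2931 ± 174 and 1111 ± 131 CPM in macrophages, and the part of macrophage RNA in their values was not tested. Cultured cells held less Fn1, 523 ± 29.1 CPM in AT3 cells and 18.5 ± 4.32 CPM in E0771 cells.

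The AT3 minus E0771 difference was also set against the 2208L minus T11 difference, a pair of tumours labelled BALB/C that shares no library with the first. Of 13933 genes tested, 1761 (12.6%) had a more positive difference in the AT3 and E0771 pair and 2085 (15%) a more negative one. Of the genes called between AT3 and E0771 macrophages, 1745 were among these. All 14 tested T and NK cell markers had a more negative difference, as did 25 of 49 interferon-response genes, against 1 more positive. Of 46 oxidative phosphorylation genes, 35 had a more positive difference and 0 a more negative one, and of 47 lysosomal genes 19 and 4.

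The largest positive values came from genes that were high in T11 macrophages. S100a4, a calcium-binding protein of motile cells, averaged 488 ± 140 CPM in AT3 and 179 ± 71.2 CPM in E0771 macrophages, beside 8.57 ± 5.96 CPM in 2208L and 1818 ± 389 CPM in T11 macrophages. Its difference exceeded that of the other pair by 9.26 ± 0.51 log2 (adjusted p = 1.41e-13). Mmp9, a gelatinase, averaged 37.1 ± 18.6 CPM in AT3 and 92.2 ± 35.6 CPM in E0771 macrophages, beside 14.2 ± 13.1 CPM in 2208L and 6289 ± 2815 CPM in T11 macrophages, and Ctsk averaged 10.5 ± 2.47 CPM in AT3 and 39.2 ± 14.3 CPM in E0771 macrophages, beside 9.92 ± 7.92 CPM in 2208L and 5755 ± 1537 CPM in T11 macrophages. The T11 mean of both genes was far above the means of the other 3 groups.

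For 4 of the genes higher in AT3 macrophages, no difference between the pairs was detected. Spp1 averaged 1573 ± 719 CPM in AT3 and 75.5 ± 30 CPM in E0771 macrophages, beside 6811 ± 1632 CPM in 2208L and 538 ± 134 CPM in T11 macrophages, and the difference of differences was 0.71 ± 0.42 (adjusted p = 0.209). Tmem119 averaged 155 ± 24.8 CPM in AT3 and 16.3 ± 9.75 CPM in E0771 macrophages, beside 196 ± 56.3 CPM in 2208L and 13.5 ± 3.1 CPM in T11 macrophages (-0.61 ± 0.49, adjusted p = 0.362). Ptgs1 averaged 232 ± 20.7 CPM in AT3 and 19.1 ± 13.9 CPM in E0771 macrophages, beside 276 ± 96.3 CPM in 2208L and 12.1 ± 3.11 CPM in T11 macrophages (-1.01 ± 0.51, adjusted p = 0.14). Fn1 averaged 34757 ± 4925 CPM in AT3 and 1663 ± 1871 CPM in E0771 macrophages, beside 10038 ± 2916 CPM in 2208L and 1034 ± 352 CPM in T11 macrophages (1.10 ± 0.61, adjusted p = 0.171). In each of these genes the AT3 and 2208L means were above the E0771 and T11 means, and values that miss the threshold do not show that the differences are equal. Most of the other genes named as higher had a more positive difference in the AT3 and E0771 pair by this test. They were Vsig4, Pmepa1, Arhgap24, Slc7a2, Dcn, Arg1, Lyz2, Cxcl14, Clec5a and Fcna. Oasl1 averaged 33.8 ± 10.1 CPM in AT3 and 422 ± 45.6 CPM in E0771 macrophages, beside 151 ± 31.1 CPM in 2208L and 193 ± 30.4 CPM in T11 macrophages, where the 2208L and T11 means lay close together (-3.28 ± 0.36, adjusted p = 1.07e-07).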

How the data were processed

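RNA of sorted tumour macrophages was read from 1 table of raw counts for 24054 gene symbols that the authors deposited, and 3 of its per-sample columns were not used because their name matches no title. The submitters' processing notes name bcl2fastq 2.17, the aligner STAR 2.4.2a and the genome build mm10. The counting program, its annotation and the strand setting are not given in the sources used here, so reads of overlapping genes and of near-identical copies may be shared between genes. Rn45s, 65.2% to 76.2% of the counts of the 6 compared libraries, was left out of library sizes and tests.

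Libraries were grouped by titles. The quasi-likelihood test of edgeR 4.0.16 (R 4.3.3) was run on the deposited counts. Size factors were TMM, genes were kept by filterByExpr with a minimum count of 10 and a minimum total of 15, and p-values were adjusted by Benjamini-Hochberg over every gene tested. Called means an adjusted p below 0.05. AT3 against E0771, and that difference against 2208L minus T11, were fitted on the 12 macrophage libraries. The comparison with neutrophils was fitted on the 24 sorted libraries. Log2 differences are given with the SE.

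Named genes are the 15 highest and 15 lowest called genes with a mean of at least 20 CPM and libraries that do not overlap between the groups, and, for each difference of differences, the 6 most positive and 6 most negative called genes. Predicted, clone-named and RIKEN models and pseudogenes were not named. Members of 41 lists of marker and pathway genes were named as well, except a few that enter the counts and are not reported here. Members and lists were chosen with earlier results of these data known, so no p over a list was computed and lists are described by counts. Trbc2 and H2-Ea, each in a list, have no line under that symbol. Csf1r, Emr1 and C1qa were the macrophage markers.

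The alternatives were DESeq2 1.42.0, other size factors, no filter, Rn45s kept, a replicate block, the compared groups alone, a log2 minimum of 1 and leaving out each library. Genes above background (at least 10 times the level per base of olfactory and vomeronasal receptor genes), factors from those genes and library totals were chosen after seeing the data. The fit was tested on simulated data. Replicate libraries differed by a chi-square per degree of freedom of 4.29 to 7.8, above sampling noise, so none was counted as a repeat. Tables and figures used limma 3.58.1, Python 3.11.15, pandas 2.3.3, numpy 2.4.6 and matplotlib 3.10.9.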

Additional observations from a re-analysis of the deposited data

Results flagged for a closer look

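The AT3 minus E0771 difference of 12 genes differed between macrophages and neutrophils by the edgeR test of the difference itself. The log2 difference of differences was 3.74 for Vsig4, 3.61 for Arhgap24, 3.56 for Pmepa1, 3.20 for Fcna, 3.20 for Bhlhe41 and 3.19 for Slc7a2, each more positive in macrophages. It was -6.69 for Retnla, -5.59 for Gzmb, -5.42 for Ccl5, -5.35 for Plac8, -4.58 for Fcrl5 and -4.45 for Ccl22, each more negative in macrophages. Vsig4 missed the threshold without AT3 macrophage library 2 and without E0771 macrophage library 1.

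The AT3 minus E0771 difference of 12 genes differed from the 2208L minus T11 difference in macrophages by the same kind of test. The log2 difference of differences was 9.26 for S100a4, 7.57 for Mmp9, 7.25 for Ctsk, 6.48 for Cspg4, 5.22 for Kbtbd11 and 5.06 for Pcdhgc3, genes with their highest mean in T11 macrophages. It was -10.21 for Retnla, -8.58 for Ccr7, -7.92 for Clec4b1, -7.68 for Ccl22, -7.43 for Gzmb and -7.37 for Il2rb. Retnla had 0 counts in all 3 T11 libraries, so its value depends on the prior count and is no bound. These genes were picked by the size of these values.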

How the results depend on the processing

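No gene called between the groups among those named or listed changed sign under any alternative run. Medians of lists did. With library totals the medians of 8 of 41 lists changed sign, among them oxidative phosphorylation (-0.02 against 0.45), lipid handling (-0.23 against 0.23), endoplasmic reticulum stress (-0.18 against 0.29) and immediate early genes (-0.11 against 0.35). Under each other setting 0 to 5 lists did. The median over all genes was 0.02 with only genes above background, against -0.05. Library totals also ended the calls of Atp5a1, Atp6v1e1, Col3a1, Csf2ra, Itgal, Ciita, Hif1a, C1qb, C1qc and Ccl9, each higher in AT3 macrophages. Between AT3 and E0771 macrophages, 1306 genes were higher and 1292 lower. The higher count moved to 1977 without a filter, 803 with the compared groups alone, 744 with only genes above background scaled and fitted, 822 with factors from those genes, 426 with library totals and 842 at a log2 minimum of 1. The lower count moved to 836 with only genes above background and 2437 with library totals. Leaving out each library gave 852 to 1589 higher and 609 to 1268 lower genes. Against neutrophils, 112 positive and 280 negative genes became 176 and 545 with DESeq2 and 52 and 182 with the compared groups alone, and 67 to 221 and 132 to 376 without each macrophage library. Against 2208L and T11, leaving out each library gave 1503 to 2171 positive and 1515 to 2112 negative genes. The cause of these shifts was not tested.

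Deviations of same-numbered AT3 and E0771 libraries from their group means had correlations of 0.0621, -0.000191 and -0.0121, and these libraries were not taken as pairs. With 3 libraries a group, such correlations cannot tell whether libraries share an origin. Macrophage and neutrophil libraries of the same line and number gave correlations of 0.103, 0.137 and 0.029 in AT3 and -0.00565, -0.0194 and -0.013 in E0771. Those of different numbers gave -0.133 to 0.0311 in AT3 and -0.00449 to 0.0181 in E0771. Same-numbered libraries were not taken as pairs in the main fit. With a replicate block the counts were 1201 and 1068 between the macrophages, 106 and 175 against neutrophils, and 1645 and 1813 against 2208L and T11. Of 324 called genes that are named or listed, 196 kept their call under each alternative, all 30 genes of the naming rule among them. Libraries of E0771 macrophages hold fewer counts outside Rn45s, 683150 to 1125016, which limits the precision of genes with few counts. More genes reached 10 counts in them, 11241 to 12560, beside 9898 to 10390 in AT3 libraries.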

Other observations

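Genes that respond to stress and to tissue handling differed between the groups in both directions. Of 30 immediate early and dissociation-response genes, 9 were higher and 2 lower in AT3 macrophages, 5 were higher without E0771 library 2, and 2 were higher and 5 lower when scaled to library totals. Fos, an immediate early transcription factor, had 2325, 1876 and 1706 CPM in AT3 macrophages, against 986, 1042 and 1269 CPM in E0771 macrophages, without overlap (log2 difference 0.84, edgeR adjusted p = 0.0168), a call lost without AT3 library 1 or E0771 library 2 and with library totals. Gadd45b, a stress-induced gene, had 0.999, 8.47 and 12.2 CPM in AT3 macrophages, against 65.7, 84.7 and 68.9 CPM in E0771 macrophages (log2 difference -3.29, edgeR adjusted p = 3.17e-05).

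Of 23 genes of endoplasmic reticulum stress and amino acid response, 5 were higher and 4 lower, beside 9.37% and 9.27% of all genes tested. With library totals, 1 was higher and 8 lower. Xbp1, a factor of the unfolded protein response, had a log2 difference of 0.88, whereas Ddit3, a factor of prolonged stress, had a difference of -1.67 (edgeR adjusted p = 0.00907 and 0.0192). The call of Xbp1 was lost without AT3 library 2 and with library totals, and that of Ddit3 without AT3 library 1, AT3 library 3 or E0771 library 2. Without AT3 library 2, 2 of the genes were higher, without AT3 library 1 or E0771 library 1, 3 were, and without AT3 library 3 or E0771 library 2, 2 were lower.

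The Y-linked genes Ddx3y, Eif2s3y, Kdm5d and Uty had 0 counts in each of the 6 macrophage libraries.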
